A study of Mus musculus with 20 samples.

Results

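The smooth muscle contractile genes examined here are Acta2, Tagln, Cnn1, Myh11, Myl9, Tpm1, Tpm2, Cald1, Des and Myocd. They were chosen by name, as genes of the contractile apparatus and its main transcriptional coactivator. No cut on their values was used, but earlier results of these data were known when they were chosen. Each symbol was matched to 1 Ensembl gene identifier of the count table, so that the 10 genes are 10 of the 55573 genes listed. All 10 passed the filter on low counts that left 19240 genes for the tests over days. Cnn1 and Myh11 passed it only through wild type libraries, Cnn1 mainly through 1 line. In the Nox4-/- libraries Cnn1 had at most 4 counts and Myh11 at most 7.

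The series holds 20 RNA-seq libraries of mouse induced pluripotent stem cell (iPSC) lines and of the embryoid bodies (EBs) grown from them, and it compares wild type cells with cells that lack the NADPH oxidase Nox4 (Nox4-/-). There are 2 wild type lines, WT#1-4 and WT#20D-17, and 2 Nox4-/- lines, #5-8 and #5-23, each sampled on days 0, 3, 5, 7 and 14 with 1 library per line and day. All 4 lines came from embryonic fibroblasts that received Oct4, Sox2, Klf4 and c-Myc by viral vectors, each line is 1 clone, and all were kept with LIF on feeder fibroblasts treated with mitomycin C. EBs were formed in hanging drops without LIF and plated on gelatin after 3 days. The paper does not name WT#20D-17, and the protocol text of the labels gives day 10 as the last day where the sample titles give day 14, which is used below. Within a genotype the line is the independent unit, so that the 5 days of a line are not replicates of its genotype.

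In smooth muscle, force comes from filaments of smooth muscle actin (Acta2) sliding on myosin filaments made of the heavy chain Myh11 and light chains such as Myl9, while tropomyosin (Tpm1, Tpm2), calponin (Cnn1) and caldesmon (Cald1) lie along the actin and regulate its contact with myosin. Transgelin (Tagln) is an actin binding protein that appears early in the lineage, and desmin (Des) is the intermediate filament of muscle cells. Most of these genes are driven by serum response factor (Srf) bound to CArG boxes, with myocardin (Myocd) or the related factors Mrtfa and Mrtfb as its coactivators. Nox4 is known to support the smooth muscle phenotype, and smooth muscle actin was the protein stained in the study as a marker of mesoderm.

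CArG boxes were searched in the RefSeq promoter windows of GRCm38.p6, which run from 250 bases before to 50 bases after a start. A box was read as CC, then 6 bases that were each A or T, then GG, which reads alike on both strands, and a near match had 1 of the 6 middle bases changed. Windows were given for 7 of the 10 genes, in 8 windows, and Tagln, Myh11 and Myocd had none. Of the members with a window, Myl9 held a box and Acta2 and Myl9 held near matches, while 1.63% of all 32851 windows held a box and 9.98% a box or a near match. The sequences are shown because CArG boxes are the kind of element that Srf binds, and these are the matches in the windows of the actin and light chain genes described next. The capitals mark the box or near match. The lines of Acta2 are from chr19:34255438-34255467 and chr19:34255388-34255417 on the minus strand, both within an exon of the GENCODE annotation, and the line of Myl9 is chr2:156775293-156775384 on the plus strand.
Acta2, first near match: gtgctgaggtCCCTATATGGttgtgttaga
Acta2, second near match: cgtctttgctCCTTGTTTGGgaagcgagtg
Myl9, box and near match: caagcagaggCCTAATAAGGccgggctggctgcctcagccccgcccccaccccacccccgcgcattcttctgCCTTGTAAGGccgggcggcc
The near matches of Acta2 lay from 84 to 75 and from 34 to 25 bases before its start. The box of Myl9 lay from 161 to 152 bases before its start and its near match from 99 to 90. The presence of these letters is a description of the window and says nothing of binding.

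Libraries held between 20294968 and 27708023 counts. Levels are given as CPM, which are counts scaled to the library total with TMM factors, and 3 counts, taken as the floor, corresponded to between 0.109 and 0.157 CPM. Nox4 itself was at 0.149 to 0.874 CPM in WT#1-4, from 3 to 22 counts, and at 2.62 to 9.01 CPM in WT#20D-17. It had 0 to 2 counts in each Nox4-/- library. This order is the one the labels give, but on day 14 WT#1-4, at 3 counts, was at the floor too. The lines did not start alike. Nanog, a defining gene of pluripotent cells, was at 383 CPM in WT#20D-17 on day 0 and at 0.038, 0.359 and 0.149 CPM in WT#1-4, #5-8 and #5-23, and Zfp42 had 0 counts in those 3 lines on day 0. Pou5f1 was high in all 4 lines on day 0, at 5760 CPM in WT#1-4, 1136 in WT#20D-17, 3081 in #5-8 and 4394 in #5-23, and reads of the viral Oct4 could not be separated from it. WT#20D-17 thus stood apart from the 3 other lines, and calls without it are given beside those that include it. The tests by day are an exception, because only 1 wild type library a day would be left.

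Actin came first among the components. Acta2 (ENSMUSG00000035783, chromosome 19 of GRCm38 from 34241090 to 34255590) was the only smooth muscle actin on the list. In WT#1-4 it was at 5.66, 24.4, 23.1, 29.4 and 37.5 CPM on days 0, 3, 5, 7 and 14. In WT#20D-17 it went from 1.19 CPM on day 0 to 158, 431, 767 and 410.4 CPM on the later days. In #5-8 it was at 1.28, 7.47, 15.2, 12.2 and 3.57 CPM, and in #5-23 at 1.34, 2.25, 2.00, 2.22 and 1.79 CPM. On day 0, WT#20D-17 and both Nox4-/- lines had nearly equal levels, whose 95% Wilson intervals from counting error ran from 0.828 to 1.71, from 0.905 to 1.80 and from 0.967 to 1.85 CPM. From day 3 on, every wild type library was above every Nox4-/- library of any day. In whole cultures, fewer cells of a type and less RNA per cell cannot be told apart, and this holds for each level below.

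Tagln (ENSMUSG00000032085, chromosome 9, 45929619 to 45936058) followed Acta2. It was at 1.79, 14.7, 16.1, 17.9 and 32.7 CPM in WT#1-4 and at 20.3, 214, 214, 258 and 165 CPM in WT#20D-17. In #5-8 it was at 0.679, 5.03, 8.60, 5.64 and 3.76 CPM, and in #5-23 at 0.669, 1.10, 1.51, 0.932 and 1.09 CPM. The 2 Nox4-/- lines therefore began at the same level and parted from day 3, with #5-23 nearly flat. The exons of Tagln share 1241 of 1988 bases with the antisense gene Gm48529, which had 15 to 122 counts, and 108 bases with Pcsk7 on the other strand, and although the library kit was stranded, the sources used here do not state whether the counting used the strand.

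Calponin and caldesmon, the other regulators on the actin filament, went different ways. Cnn1 (ENSMUSG00000001349, chromosome 9, 22099216 to 22109630) was near the floor outside WT#20D-17, with 0, 8, 6, 23 and 12 counts in WT#1-4, 0, 4, 2, 3 and 1 counts in #5-8, and 0, 0, 0, 1 and 1 counts in #5-23. In WT#20D-17 it was at 10.2, 18.1, 9.98, 8.26 and 2.57 CPM, so that it was present on day 0 and lowest on day 14. Cald1 (ENSMUSG00000029761, chromosome 6, 34598500 to 34775473), which is also made in a non-muscle form that gene counts do not separate, was at 75.6, 114, 120, 162 and 247 CPM in WT#1-4 and at 75.7, 284, 317, 407 and 449 CPM in WT#20D-17. It was at 89.5, 108, 128, 140 and 102 CPM in #5-8 and at 98.7, 121, 141, 152 and 158 CPM in #5-23. On day 0 both Nox4-/- lines were above both wild type lines for Cald1, and on days 7 and 14 both were below them.

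The tropomyosin genes Tpm1 (ENSMUSG00000032366, chromosome 9, 67022590 to 67049406) and Tpm2 (ENSMUSG00000028464, chromosome 4, 43514711 to 43523765) were the members in which the 10 Nox4-/- libraries did not overlap the 10 wild type libraries, over all days. Tpm1, which also codes for non-muscle forms, was at 155, 170.2, 186, 180.2 and 173 CPM in WT#1-4, at 182, 943, 985, 759.9 and 584 CPM in WT#20D-17, at 83.3, 107, 142, 134 and 144 CPM in #5-8, and at 77.4, 88.4, 107, 101 and 109 CPM in #5-23. The lowest wild type library, at 155 CPM, lay above the highest Nox4-/- library, at 144 CPM. Tpm2 was at 5.39, 8.42, 9.51, 9.56 and 5.65 CPM in WT#1-4 and at 36.1, 62.6, 74.8, 71.1 and 65.5 CPM in WT#20D-17. It was at 0.359, 0.797, 0.612, 0.771 and 0.139 CPM in #5-8 and at 0.818, 0.412, 0.529, 0.799 and 1.02 CPM in #5-23. The lowest wild type value of Tpm2, 5.39 CPM with a 95% Wilson interval of 4.58 to 6.36, was above the highest Nox4-/- value, 1.02 CPM with an interval of 0.706 to 1.48. Tpm2 was already apart on day 0 in all 4 lines.

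Of the myosin genes, the heavy chain Myh11 (ENSMUSG00000018830, chromosome 16, 14194535 to 14291372), which defines mature smooth muscle, was close to the floor. It had 6, 9, 14, 10 and 14 counts in WT#1-4, 12, 20, 13, 13 and 12 in WT#20D-17, 7, 1, 0, 2 and 2 in #5-8, and 7, 0, 3, 2 and 0 in #5-23. Its highest level, on day 3 in WT#20D-17, was 0.861 CPM with a 95% Wilson interval of 0.558 to 1.33. On day 0 the Nox4-/- lines, at 0.280 and 0.260 CPM, were level with WT#1-4 at 0.228 CPM, and they were at or under the floor afterwards. Myl9 (ENSMUSG00000067818, chromosome 2, 156775420 to 156781658), the regulatory light chain, was at 0.266, 3.10, 2.28, 3.03 and 4.51 CPM in WT#1-4, at 10.6, 24.7, 27.5, 59.7 and 73.2 CPM in WT#20D-17, and at 0.200, 0.923, 2.18, 3.18 and 0.649 CPM in #5-8. In #5-23 it stayed between 0.112 and 0.292 CPM, from 3 to 8 counts. For Myl9, line #5-8 was close to WT#1-4 on day 5 and above it on day 7, and #5-23 was the lowest line on all 5 days.

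Des and Myocd had another order of lines. Des (ENSMUSG00000026208, chromosome 1, 75360329 to 75368579) was highest in WT#1-4, at 1049, 465, 431, 606 and 380.3 CPM, and was at 18.5, 19.5, 22.1, 12.7 and 19.3 CPM in WT#20D-17. In the Nox4-/- lines it was at 18.4, 31.1, 48.4, 75.1 and 180.3 CPM in #5-8 and at 7.43, 37.7, 60.7, 86.0 and 48.1 CPM in #5-23. The 2 wild type lines therefore lay on either side of the Nox4-/- lines from day 3 on. Speg, a muscle kinase gene that lies 6718 bases from Des, was also high on day 0 in WT#1-4, at 391 CPM, and low in WT#20D-17, at 24.1 CPM, but it was at 245 and 189 CPM in #5-8 and #5-23, where Des was low.

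Myocd (ENSMUSG00000020542, chromosome 11, 65176561 to 65269989), the coactivator, was at 8.32, 6.36, 8.17, 10.5 and 23.1 CPM in WT#1-4 and at 0.082, 1.64, 8.24, 2.84 and 2.10 CPM in WT#20D-17. It was at 0.120, 0.084, 0.535, 1.06 and 1.86 CPM in #5-8 and at 0.632, 1.19, 3.33, 5.73 and 18.6 CPM in #5-23. On day 14 the Nox4-/- line #5-23 was above WT#20D-17 and close to WT#1-4, although Acta2 was at 1.79 CPM and Tagln at 1.09 CPM in that library.

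**Figure D1:**
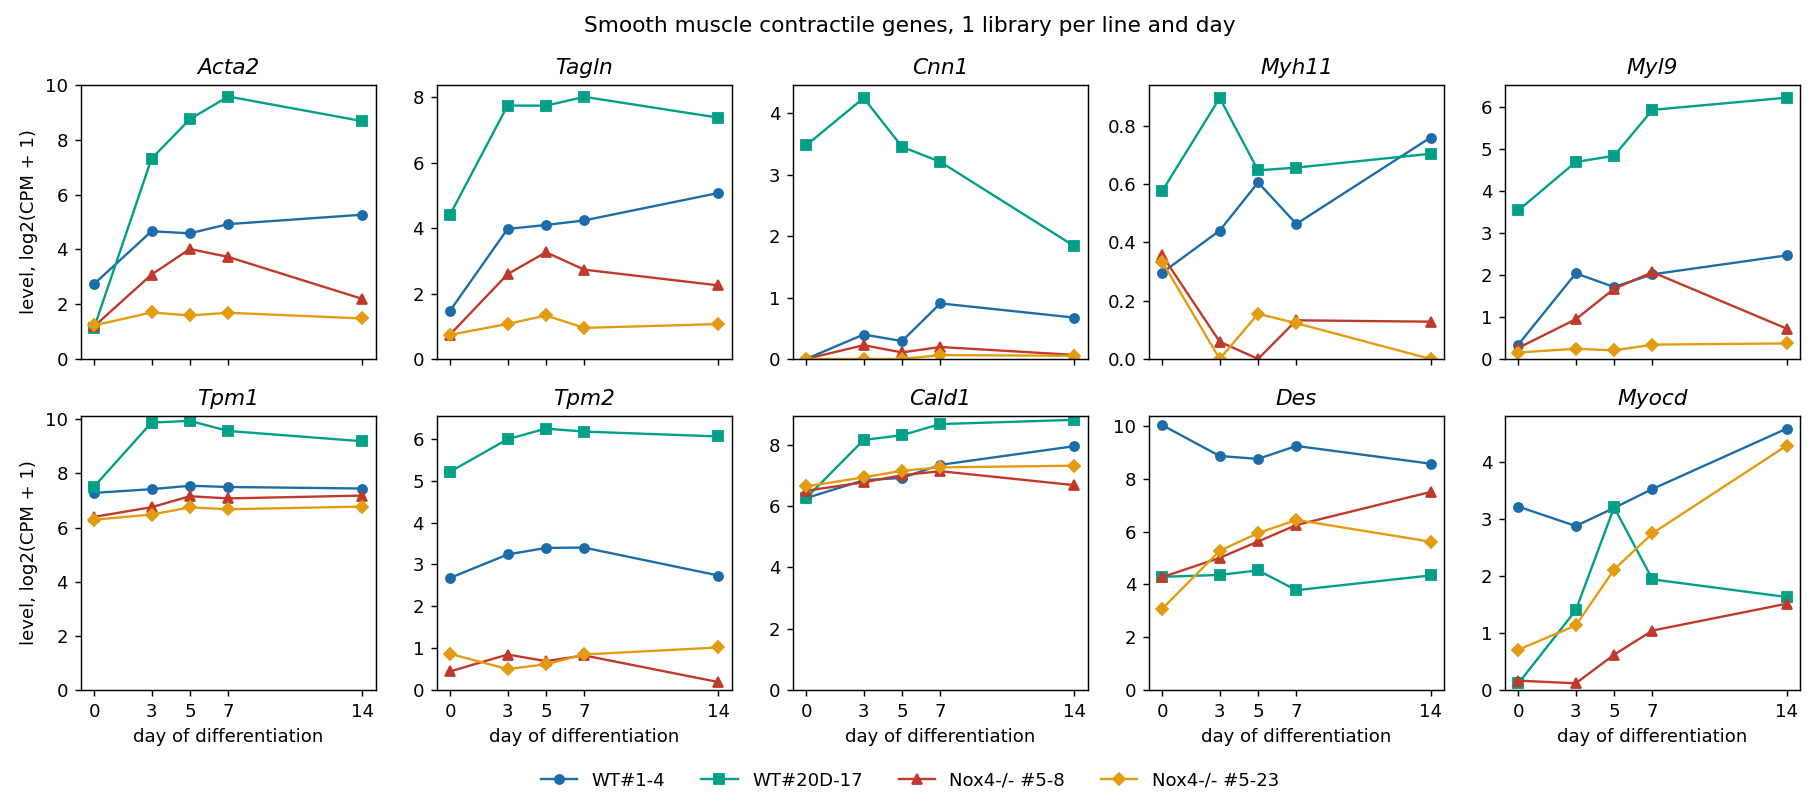
Level of each of the 10 genes, as log2(CPM + 1), against the day of differentiation, with 1 point per library and 1 line per iPSC line. WT#20D-17 was highest for Acta2, Tagln, Cnn1, Myl9, Tpm1, Tpm2 and Cald1 from day 3 on, WT#1-4 for Des, and both Nox4-/- lines lay below both wild type lines for Tpm1 and Tpm2 on all 5 days.

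Levels of different genes were compared only per kilobase of exon, as the mean CPM per kilobase over the 5 days of a line. In WT#20D-17 the order was Acta2 at 161, Tpm1 at 107, Tagln at 87.7, Myl9 at 33.7, Cald1 at 25.5 and Tpm2 at 21.3, then Des at 4.91, Cnn1 at 3.58, Myocd at 0.464 and Myh11 at 0.0823. In that order only Tpm2 and Des had ranges over the days that did not overlap, and all other neighbours did overlap. In WT#1-4 Des came first at 156 and Tpm1 next at 26.7, both apart from their next neighbour, while Cald1 at 11.9, Acta2 at 10.9 and Tagln at 8.37 overlapped one another in sequence. Cnn1 at 0.147 and Myh11 at 0.0574 were last there. In both Nox4-/- lines Tpm1 (18.8 in #5-8, 14.9 in #5-23), Des (18.8 and 12.8) and Cald1 (9.41 and 11.2) had the highest means and overlapped in sequence. Acta2, at 3.62 and 0.874, was the next in #5-8 and came after Myocd, at 0.916, in #5-23. Cald1 did not overlap the next gene in either line, but Des did. Its lowest level was 4.89 in #5-8, where Acta2 reached 6.91, and 1.98 in #5-23, where Myocd reached 2.89.

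The first question was which of the genes changed as EBs differentiated. Over the 5 days, with the line as a block, edgeR's quasi-likelihood test called 2 of the 10 genes, Tagln at an FDR of 0.00127 and Myl9 at 0.00457. Here and below a gene is called at a false discovery rate (FDR, the Benjamini-Hochberg adjusted p over all genes tested) under 0.01. Of all genes tested, 16.4% were called. Myocd (FDR 0.0201), Cald1 (0.025) and Acta2 (0.11) did not pass, and 5 of the 10 had an unadjusted p under 0.05. Leaving out WT#1-4 or #5-8 left 0 calls, leaving out #5-23 left Tagln, and leaving out WT#20D-17 gave Myocd alone. Of all genes, 1398 of 19946 were called without WT#1-4 and 978 of 20288 without #5-8. Without #5-23 they were 610 of 20292, and without WT#20D-17 4002 of 18653. Further counts of members from alternative fits stand without such a share unless it is given, and are no results about the members. The same holds for all counts at an unadjusted p.

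Between day 0 and day 14, 4 of the 10 genes rose and 0 fell, against 13.6% of all genes that rose. In either direction, 5133 of the 19240 genes tested were called. Tagln was higher on day 14 by a log2 fold change of 2.88 ± 0.46 (SE, FDR 0.000138), Myl9 by 2.74 ± 0.52 (0.00056), Myocd by 3.22 ± 0.80 (0.00416) and Cald1 by 1.24 ± 0.28 (0.00242). All 4 were higher on day 14 than on day 0 in each of the 4 lines. Acta2 was higher in all 4 lines too, but the size ran from 1.34-fold in #5-23 and 2.80-fold in #5-8 to 6.63-fold in WT#1-4 and 345-fold in WT#20D-17, and it did not pass the test (2.57 ± 0.89, FDR 0.0293). Tpm1 (0.67 ± 0.27), Des (0.86 ± 0.65), Cnn1 (0.58 ± 0.94), Tpm2 (0.29 ± 0.35) and Myh11 (-0.61 ± 0.81) did not pass either. The median log2 fold change of the 10 genes was 1.05, beside 0.04 for all genes tested.

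Those rises did not rest on WT#20D-17. Without it Tagln (log2 fold change 2.63), Myl9 (2.83), Cald1 (0.91) and Myocd (3.05) passed. Cnn1 passed there too, but from few counts. It had 0 on day 0 and 12 on day 14 in WT#1-4, and 0 and 1 in each Nox4-/- line. In WT#20D-17 Cnn1 fell from 10.2 to 2.57 CPM. Without WT#1-4 only Tagln and Myocd passed, without #5-23 only Tagln and Myl9, and without #5-8 Tagln, Myl9 and Cald1. Over the same days, where 13.6% of all genes rose, markers of other tissues were counted too. Of 12 cardiac muscle markers 4 rose, of 12 fibroblast markers 2, of 6 endothelial markers 1, and of 7 pericyte markers 0, and their part in the rise of the contractile genes was not tested.

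Shorter steps gave no calls. Day 3 against day 0 gave 0 of 10, where 0.161% of all genes were called in either direction, with 5 genes at an unadjusted p under 0.05 by edgeR's quasi-likelihood test and 1 call, Tagln, by DESeq2. The nearest was Tagln, at 2.65 ± 0.46 and an FDR of 0.0137. Day 7 against day 3 gave 0 calls with edgeR, as for 0% of all genes, with 1 unadjusted p under 0.05 (Myocd) and 0 calls by DESeq2. Day 14 against day 7 gave 0 of 10 with edgeR, with 0.0104% of all genes called, 0 unadjusted p under 0.05, and 0 calls by DESeq2. Each of these 3 steps also gave 0 calls without WT#20D-17.

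Whether the course over days differed between the genotypes was tested as the interaction of genotype and day, with the line as a block. It called 0 of the 10 genes with edgeR, and 0.0104% of all genes. At an unadjusted p under 0.05 were Des (FDR 0.457) and Cald1 (0.617), and DESeq2 called 1, Des. Without WT#20D-17, 0 were called. Without WT#1-4, Tpm1 was called, from a wild type course of 1 line whose spread was taken from the Nox4-/- lines. Des fell to 0.363 of its day 0 level by day 14 in WT#1-4 and was at 1.04 of it in WT#20D-17, while it rose 9.82-fold in #5-8 and 6.47-fold in #5-23. Cald1 on day 14 was 3.27 and 5.93 times its day 0 level in the wild type lines, and 1.14 and 1.61 times in the Nox4-/- lines.

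The second question was whether the contractile genes differed between WT and Nox4-/- cells. With the line as the unit, the counts of each line were summed over days and 2 lines were compared with 2. The fold changes were large, with log2 values of -5.74 ± 1.27 for Tpm2, -5.19 ± 1.71 for Acta2, -4.98 for Tagln, -4.62 for Myl9, -6.64 for Cnn1, -2.36 for Myh11, -1.95 for Tpm1 and -0.79 for Cald1. Des and Myocd, which were higher in WT#1-4 than in WT#20D-17, were at -2.41 and -0.97. The median was -3.51, beside 0.00 for all genes. edgeR's quasi-likelihood test called 0 of the 10 genes and 0% of all genes (Tpm2 and Acta2 both had an FDR of 0.604). An unadjusted p under 0.05 was found for 5 members, with no share of all genes beside it. DESeq2 called 4, Acta2, Tagln, Cnn1 and Tpm2. The 5 members included Cnn1 and Myh11, which had at most 4 and 7 counts in any Nox4-/- library. Lower values in Nox4-/- cells for these 2 are therefore no support. Without WT#20D-17 0 were called and the values were smaller for most members, at -2.22 for Acta2, -2.42 for Tagln, -3.60 for Tpm2 (FDR 0.122) and -3.36 for Des (FDR 0.0756). Without WT#1-4 Tpm2 was called. In both of these fits the single wild type line was assumed to vary like the Nox4-/- lines.

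Day by day, with 2 lines in each genotype, edgeR's quasi-likelihood test called 0 of the 10 genes on any day. The share of all genes called was 0.0104% on day 0, 0.00520% on days 3, 5 and 7, and 0.0156% on day 14. An unadjusted p under 0.05 was found for 3, 6, 6, 4 and 6 members on days 0, 3, 5, 7 and 14, and DESeq2 called 1, 1, 1, 2 and 4. These counts stand without a share of all genes and are no result about the members. Those at an unadjusted p include Cnn1 on days 0, 3 and 5 and Myh11 on days 3, 5 and 14. Both genes passed the filter on low counts only through wild type libraries. Without WT#1-4 or without WT#20D-17 the wild type arm was 1 library of 1 clone a day, and the spread came from the Nox4-/- lines. Calls of those fits are therefore not given. Tpm2 was lower in Nox4-/- cells on every day, by log2 fold changes of -5.07 ± 1.65, -5.79 ± 1.71, -6.16 ± 1.74, -5.64 ± 1.69 and -5.88 ± 1.71, with an FDR of 0.11 on day 14. For Acta2 the estimate was -1.36 ± 1.73 on day 0 and -6.38 on day 14 (FDR 0.133). The median over the members was -3.71, -4.31, -3.38, -3.22 and -4.45 on the 5 days, beside -0.01 to -0.10 for all genes.

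The order of the 4 lines on each day was more uniform than the tests. Both Nox4-/- lines lay below both wild type lines for 5 of the 10 genes on day 0, where 17.8% of all genes did so, for 8 on day 3 (20.7%), 8 on day 5 (21.1%), 7 on day 7 (22.3%) and 8 on day 14 (21.6%). On day 0 the 5 were Tagln, Myl9, Tpm1, Tpm2 and Des. On days 3 and 5 they were all but Cald1 and Des, on day 7 they were Acta2, Tagln, Cnn1, Myh11, Tpm1, Tpm2 and Cald1, and on day 14 all but Des and Myocd. These counts share the same 4 lines on all days and are not independent of one another. From day 3 on they include Cnn1 and Myh11, which passed the filter only through wild type libraries.

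With the days of a line pooled, the test that the study used (edgeR's exact test) compares the Nox4-/- libraries with those of 1 wild type line. Because it counts the 5 libraries of 1 clone as separate samples, its p-values are too small for a statement on genotype. Both comparisons below share the 10 Nox4-/- libraries. Against WT#1-4, 0 of the 10 genes were higher, for which no share of all genes is given. Lower were 6 of the 10, where 3.97% of the 33860 genes tested were lower. They were Tpm2 (log2 fold change -3.61 ± 0.34, FDR 6.39e-22), Des (-3.31 ± 0.47, FDR 5.13e-10), Tagln (-2.52 ± 0.61, FDR 0.00109), Acta2 (-2.28 ± 0.56, FDR 0.00143), Myh11 (-2.09 ± 0.65, FDR 0.00666) and Tpm1 (-0.66 ± 0.15, FDR 0.00395). Cnn1 (-2.86 ± 0.79, FDR 0.0109), Myl9 (-1.69 ± 0.72), Myocd (-1.77 ± 0.82) and Cald1 (-0.21 ± 0.22) did not pass. The median was -2.18, beside 0.00 for all genes.

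Of these calls Tpm2 and Des held in every alternative fit. The quasi-likelihood test called only those 2, and the same test with day as a block called 8. Without #5-23 the calls were Tpm2, Des and Myocd, and without #5-8 they were Acta2, Tagln, Cnn1, Myl9, Tpm1, Tpm2 and Des. Leaving out 1 day gave between 3 and 6 calls, with 3 without day 3, day 7 or day 14. In values without a model, Tpm1, Tpm2 and Des had all 10 Nox4-/- libraries below all 5 of WT#1-4, which 3.45% of all genes showed.

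Against WT#20D-17 the differences were larger and most of the apparatus passed. Of the 10 genes 8 were lower, where 16.0% of all genes were lower, and Des was higher, where 9.83% were higher. Tpm2 was lower by a log2 fold change of -6.61 ± 0.31 (FDR 8.93e-90), Cnn1 by -7.47 ± 0.64 (4.50e-30), Tagln by -5.91 ± 0.62 (1.17e-18), Acta2 by -6.16 ± 0.84 (1.49e-12), Myl9 by -5.58 ± 0.69 (4.24e-13), Tpm1 by -2.66 ± 0.27 (1.23e-19), Myh11 by -2.61 ± 0.64 (7.21e-06) and Cald1 by -1.31 ± 0.26 (2.10e-05). Des was at 1.69 ± 0.51 (FDR 0.00562), a call lost with the quasi-likelihood test and without day 3, 5, 7 or 14, and Myocd was at 0.15 ± 0.98. The median was -4.12, beside -0.02 for all genes. Tagln, Cnn1, Myh11, Myl9, Tpm1 and Tpm2 had every Nox4-/- library below every WT#20D-17 library, as 14.6% of all genes did, and Acta2 overlapped only through its day 0. Of these, Cnn1 and Myh11 had passed the filter on low counts only through wild type libraries. Against all 10 wild type libraries Tpm1 and Tpm2 had no overlap, as 1.49% of all genes did.

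**Figure D2:**
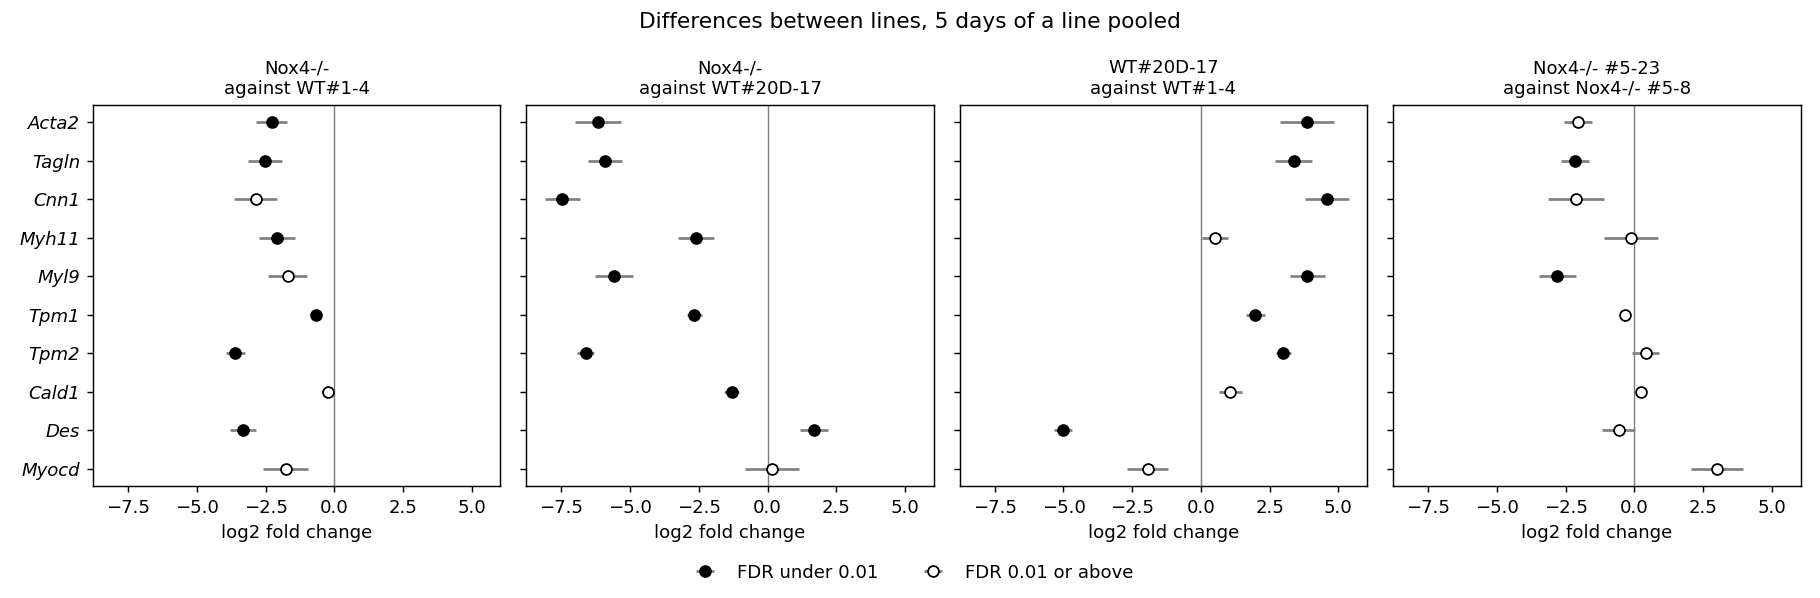
Log2 fold change of each of the 10 genes with the 5 days of a line pooled, for Nox4-/- cells against WT#1-4 and against WT#20D-17, for WT#20D-17 against WT#1-4 and for #5-23 against #5-8, with bars of 1 SE and filled points at an FDR under 0.01. Tpm2 lies at -3.61 and -6.61 in the comparisons of Nox4-/- with wild type cells, and Des at -3.31 and 1.69.

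The 2 wild type lines also differed from each other. WT#20D-17 was higher than WT#1-4 for 6 of the 10 genes, where 9.96% of all genes were higher, and lower for Des, where 7.78% were lower. The log2 fold changes were 4.58 ± 0.79 for Cnn1 (FDR 2.33e-07), 3.87 ± 0.65 for Myl9 (4.38e-07), 3.86 ± 0.98 for Acta2 (0.00086), 3.37 ± 0.68 for Tagln (2.59e-05), 2.99 ± 0.27 for Tpm2 (1.05e-19) and 1.98 ± 0.35 for Tpm1 (4.26e-06). As ratios of the means over 5 days, WT#20D-17 was 14.7-fold higher for Acta2, 10.5-fold for Tagln, 14.8-fold for Myl9 and 8.05-fold for Tpm2, and WT#1-4 was 31.8-fold higher for Des and 3.79-fold for Myocd. Acta2 lost its call with the quasi-likelihood test. WT#1-4 in turn was above #5-8 and #5-23 by 3.02-fold and 12.5-fold for Acta2, 3.51-fold and 15.7-fold for Tagln, and 1.85-fold and 13.1-fold for Myl9. For Tpm2 it was above them by 14.4-fold and 10.8-fold. The distance between the wild type lines thus exceeded that from WT#1-4 to both Nox4-/- lines for Acta2 and Myl9, only that to #5-8 for Tagln, and neither for Tpm2. It also exceeded both for Tpm1 (3.995-fold beside 1.42 and 1.79), Cald1 (2.135-fold beside 1.27 and 1.07) and Des (31.8-fold beside 8.30 and 12.2). For Cnn1 it exceeded only that to #5-8, for Myocd only that to #5-23, and for Myh11 neither.

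Between the Nox4-/- lines fewer genes were called. Line #5-23 was lower than #5-8 for 2 of the 10 genes, Tagln (-2.15 ± 0.52, FDR 0.00683) and Myl9 (-2.80 ± 0.66, FDR 0.00573), where 1.14% of all genes were lower. Acta2 was near the threshold (-2.05 ± 0.52, FDR 0.0135), and Myocd was higher in #5-23 without passing (3.01 ± 0.93, FDR 0.062). The means over days were 4.14-fold lower for Acta2, 4.47-fold for Tagln and 7.10-fold for Myl9 in #5-23, and 8.06-fold higher for Myocd. Neither call was made by the quasi-likelihood test or without day 3, 5 or 7, and with day as a block Acta2, Tagln, Myl9 and Myocd were called.

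Over the 20 libraries, Tagln, Myl9, Tpm1, Tpm2 and Acta2 had high correlations with one another. Pearson's r of log2(CPM + 1) was 0.96 for Tagln with Myl9, 0.95 for Tagln with Tpm1, 0.93 for Acta2 with Tagln and 0.91 for Tpm2 with Tagln. Myocd, the coactivator of most of these genes, had an r of only -0.07 to 0.31 with the 8 other members besides Des, and of 0.63 with Des, and Des went from -0.42 with Cnn1 upwards. These are descriptions over 20 libraries that share 4 lines, so that a large part of each value is the distance between lines. Within single lines, over 5 days, Tagln and Acta2 had an r of 0.99 in WT#1-4, 0.97 in WT#20D-17, 0.95 in #5-8 and 0.59 in #5-23, while Des and Acta2 had -0.90 in WT#1-4 and 0.86 in #5-23.

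**Figure D3:**
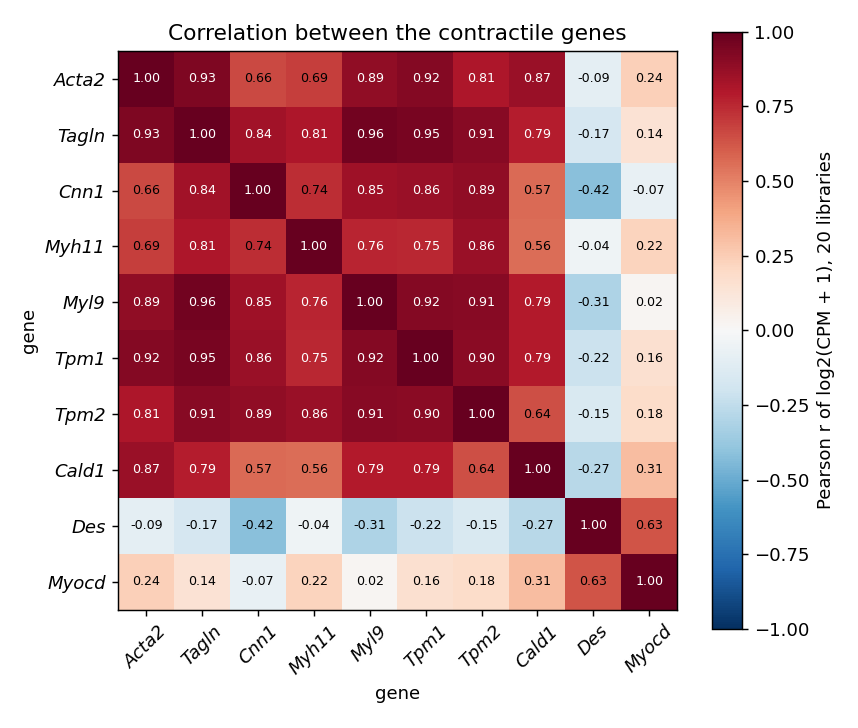
Pearson's r of log2(CPM + 1) over the 20 libraries for each pair of the 10 genes, on a colour scale. Acta2, Tagln, Cnn1, Myh11, Myl9, Tpm1, Tpm2 and Cald1 have values from 0.56 to 0.96 with one another, and Des and Myocd have values from -0.42 to 0.31 with them.

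The genes most like the contractile genes were taken as those with the highest r with the mean of the members' z-scored values, over 20 libraries and among 14570 other genes with a mean of at least 1 CPM. They were Col4a5 (0.969), Rnf128 (0.968), Myo6 (0.964), Sorbs3 (0.96), Lpp (0.955), Vwf (0.953), Ptges (0.953), Smap1 (0.952), Rab11fip5 (0.949) and Igf2 (0.949). In all, 123 genes reached 0.9. As with the members, the same 4 lines make up these points.

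Other smooth muscle genes behaved in part like the members. For this list and those below, the share of all genes that rose by day 14 was 13.6%, and 5133 of the 19240 genes tested rose or fell. No share is given for genes higher in Nox4-/- cells than in WT#1-4. Against WT#1-4, 3.97% of all genes were lower, and against WT#20D-17 16.0% were lower and 9.83% higher. Between the wild type lines 9.96% were higher and 7.78% lower in WT#20D-17. Csrp1, an early smooth muscle LIM protein, had mean levels of 203 CPM in WT#1-4, 438 in WT#20D-17, 143 in #5-8 and 87.6 in #5-23, and Cnn2 had 107, 267, 53.5 and 42.2 CPM. Of the 18 genes of that list 3 rose between day 0 and day 14 (Actg2 by a log2 fold change of 3.09, Csrp1 by 2.31 and Cnn2 by 3.81) and 0 fell. Against WT#1-4, 4 of 18 were lower in Nox4-/- cells (Actg2, Smtn, Pgm5 and Itga8) and 0 higher, and against WT#20D-17 13 were lower and 1 higher. Between the wild type lines 8 were higher and 1 lower in WT#20D-17. Fhl1 showed the distance best, at 192 CPM in WT#20D-17 and 1.57, 0.82 and 0.09 CPM in WT#1-4, #5-8 and #5-23.

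The non-muscle counterparts, build the cytoskeleton of all cells. Actb had mean levels of 2303, 1925, 1901 and 2246 CPM in WT#1-4, WT#20D-17, #5-8 and #5-23, and Myh9 414, 1043, 304 and 376 CPM. Of the 9 genes 4 rose and 1 fell by day 14. In Nox4-/- cells 1 was lower than in WT#1-4 and 0 higher, and 3 were lower and 1 higher than in WT#20D-17, where Actg1 was at 3254 CPM beside 1105, 699 and 594 CPM in the other lines.

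Srf and its partners did not part by genotype alone. Srf was at a mean of 33.2 CPM in WT#1-4, 73.3 in WT#20D-17, 26.4 in #5-8 and 27.3 in #5-23. Klf4, a repressor of the contractile genes that was also given by the viral vectors, was at 522, 62.2, 639 and 755 CPM, Foxo4, which binds myocardin, at 561, 187, 417 and 516 CPM, and Gata4 at 0.86, 460.0, 2.37 and 1.58 CPM. Of the 14 genes of this list 3 rose by day 14, 0 passed against WT#1-4, and 3 were higher and 6 lower against WT#20D-17. Among 12 early and actin linked Srf targets, 6 rose by day 14, 4 were lower in Nox4-/- cells than in WT#1-4 (Vcl, Ccn2, Egr1 and Filip1l), and 8 were lower than in WT#20D-17. Flna, which crosslinks actin, had means of 524, 823, 485 and 517 CPM in WT#1-4, WT#20D-17, #5-8 and #5-23. Ccn2, which codes for a secreted matrix protein, and Vcl, which links actin to adhesion sites, are given by day because single day 14 libraries were far above the rest. Ccn2 was at 17.7, 45.6, 3.67 and 2.04 CPM on day 0 and at 309, 2358, 26.6 and 41.6 CPM on day 14 in the same order of lines. Vcl was at 68.4, 109, 33.1 and 45.6 CPM on day 0 and at 613, 261, 21.01 and 116 CPM on day 14.

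Markers of other cell types that hold contractile genes differed between the lines too, in more than 1 order of lines. The summed CPM of the 12 fibroblast markers went from 454 on day 0 to 275 on day 14 in WT#1-4, from 37.7 to 3336 in WT#20D-17, from 64.5 to 360 in #5-8 and from 43.5 to 98.2 in #5-23. In the Nox4-/- lines most of that increase was S100a4, which is also made by other cell types and went from 15.4 to 338 CPM in #5-8 and from 8.62 to 58.4 CPM in #5-23. Of these markers 8 were lower in Nox4-/- cells than in WT#1-4 and 7 lower and 1 higher than in WT#20D-17, with 7 higher and 3 lower in WT#20D-17 against WT#1-4. Col3a1 had mean levels of 10.9, 413, 1.23 and 1.03 CPM and Col1a1 of 26.2, 348, 2.42 and 2.38 CPM in WT#1-4, WT#20D-17, #5-8 and #5-23, while Fbn1 was highest in WT#1-4, at 182, 30.8, 32.5 and 20.7 CPM. Their part in the difference of the contractile genes was not tested.

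Cardiac muscle cells contain Des and, for a time in development, Acta2 and Tagln. The 12 cardiac markers summed to 230 and 122 CPM on days 0 and 14 in WT#1-4, most of it Ryr2 with a mean of 173 CPM, and to 12.7 and 381 CPM in WT#20D-17. In #5-8 the sums were 33.1 and 49.4 CPM and in #5-23 24.8 and 71.1 CPM. Actc1 and Myh7, both on the cardiac list, had means of 32.4 and 58.8 CPM in WT#20D-17 and at most 0.73 CPM in any other line, and Myh6 had 0 counts in every Nox4-/- library. Against WT#1-4 3 of 12 were lower in Nox4-/- cells, and 9 of 12 against WT#20D-17. Skeletal muscle markers summed to at most 67.1 CPM in any library, led by Acta1 with means of 0.699, 30.4, 0.30 and 0.046 CPM, Mylpf with 2.13, 6.28, 3.09 and 3.71 CPM and Tnnt3 with 0.211, 4.07, 0.253 and 0 CPM, while Myog was at or under the floor in all 20 libraries, and of 8, 2 were lower and 1 higher in the comparison of Nox4-/- libraries with WT#20D-17. Their part in the result was not tested.

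Pericyte and endothelial markers also had more than 1 order of lines. The 7 pericyte markers summed to 31.3 CPM on day 0 and 154 on day 14 in WT#1-4, 281 and 138 in WT#20D-17, 50.9 and 52.7 in #5-8, and 54.2 and 74.6 in #5-23, with 1 of them lower in Nox4-/- cells than in WT#1-4 and 4 lower than in WT#20D-17. Notch3 had means of 20.9, 173, 13.6 and 31.6 CPM, Mcam of 28.5, 63.4, 34.9 and 43.3 CPM and Pdgfrb of 2.65, 16.4, 0.761 and 0.556 CPM in WT#1-4, WT#20D-17, #5-8 and #5-23. The 6 endothelial markers summed to 405 and 306 CPM in WT#1-4, 19.6 and 186 in WT#20D-17, 145 and 115 in #5-8, and 159 and 250 in #5-23, with 3 lower against each wild type line and 2 higher against WT#20D-17. Tek had means of 312, 21.7, 106 and 195 CPM, Pecam1 of 62.1, 15.8, 64.5 and 28.2 CPM and Cdh5 of 13.0, 26.1, 4.14 and 3.22 CPM in the same order. The pluripotency markers summed on day 14 to 1284 CPM in WT#1-4, 81.3 in WT#20D-17, 1873 in #5-8 and 3678 in #5-23, but outside WT#20D-17 this was almost all Pou5f1, at 1278, 1873 and 3677 CPM, which holds any viral Oct4 reads. The other 5 markers were highest in WT#20D-17 on day 14, with Dppa5a at 24.4, Nanog at 8.40, Zfp42 at 11.9, Esrrb at 4.78 and Utf1 at 10.6 CPM, and between 0 and 6.45 CPM in the other lines. Of the 6 markers 5 were lower and 1 higher in Nox4-/- libraries against WT#20D-17. Their part in the result was not tested.

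**Figure D4:**
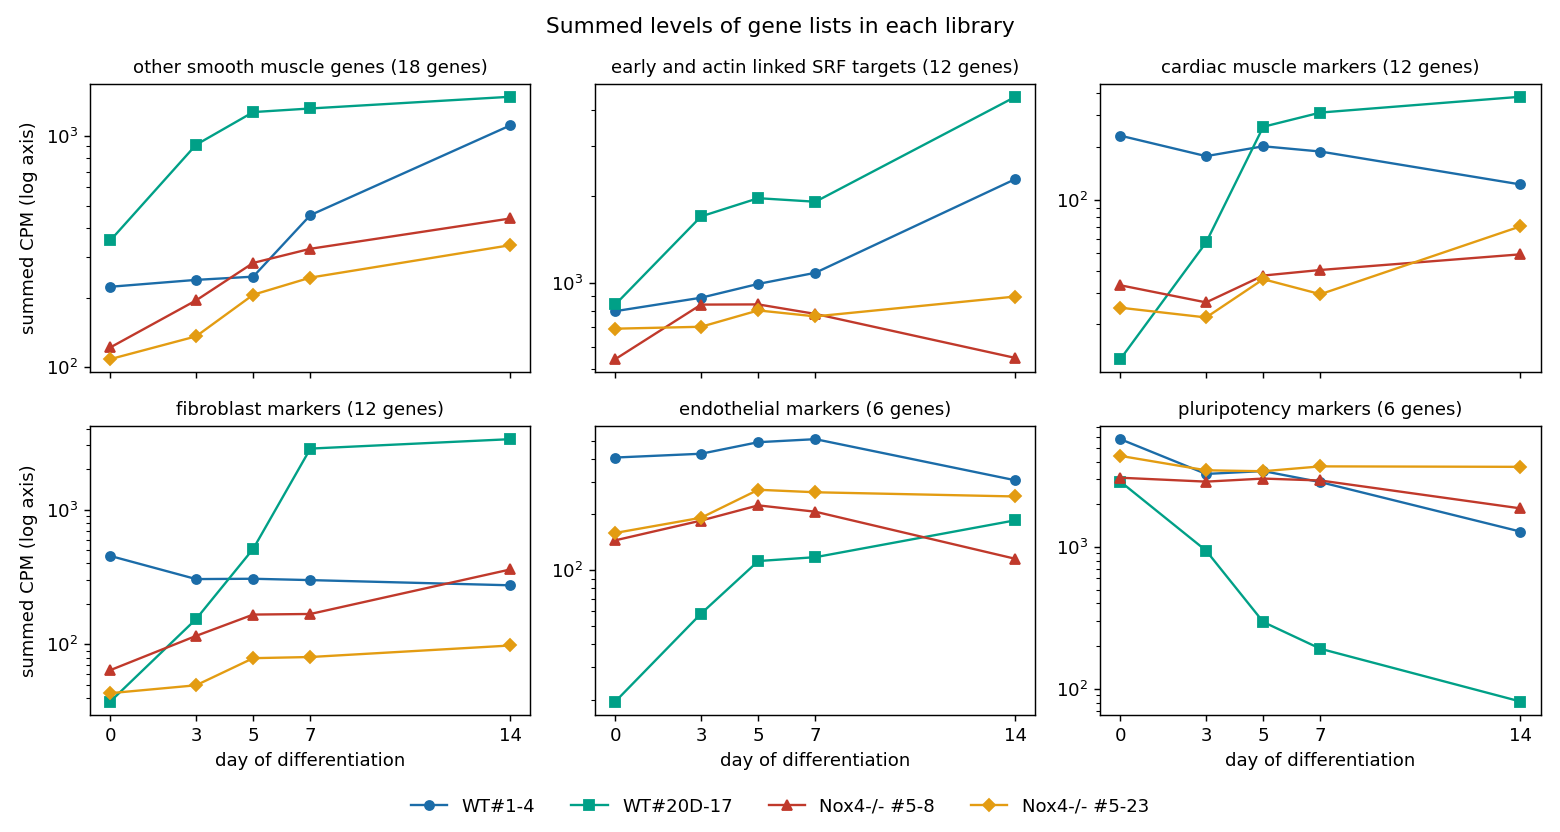
Summed CPM on a log axis against the day of differentiation for 6 gene lists (other smooth muscle genes, early and actin linked SRF targets, and cardiac, fibroblast, endothelial and pluripotency markers), with 1 point per library. In WT#20D-17 the fibroblast markers went from 37.7 to 3336 CPM and the cardiac markers from 12.7 to 381 CPM between day 0 and day 14, while its pluripotency markers ended at 81.3 CPM.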

How the data were processed

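RNA was measured in 20 libraries, grouped by line and day as the sample titles give them. The authors trimmed the reads with fastx_toolkit and deposited expected counts per gene. The submitters' processing notes name STAR 2.6.0c, RSEM 1.3.1, bcl2fastq and the builds mm10 and GRCm38. Because RSEM divides reads among genes, 9.92% of the values had decimals (of the members, only for Tagln), and values were rounded here. Total counts were 20294968 to 27708023 per library.

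Symbols and coordinates came from GENCODE M21. CPM used TMM factors. Fits were made in edgeR 4.0.16 (with limma 3.58.1) and, as the alternative tool, DESeq2 1.42.0, under R 4.3.3, and descriptions in Python 3.11.15. Changes over days and the interaction used edgeR's quasi-likelihood test with the line as a block, after edgeR's expression filter (19240 genes). Genotypes were compared by day in the same test with groups of genotype and day, with counts summed per line, and, as in the study, by edgeR's exact test with days pooled (33860 genes above 0). The SE beside an exact test is that of the quasi-likelihood fit. Nothing says that libraries of a line came from separate cultures. The block follows from the line: deviations from the mean of the 4 lines on a day correlated between days of a line. The correlation was 0.672 to 0.81 on average and 0.435 at the lowest, and these deviations still hold any difference between genotypes. Fits were also run on simulated counts that held no differences between lines of a genotype, and the outcome is not given here. Intervals are 95% Wilson intervals and, like the floor, cover counting error only.

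All 10 members are named, and of each list the 3 genes highest in mean CPM, with defining markers and with genes called in small counts, which were chosen after their values were seen. The members and lists were chosen with earlier results of these data known. Alternatives covered normalization, filter, tool, block, FDR, and each line or day left out. Promoter windows came from RefSeq (GRCm38.p6), and no whole genome was used.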

Additional observations from a re-analysis of the deposited data

Results flagged for a closer look

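Between day 0 and day 14 the level of Myh11 was higher at the end in both wild type lines and lower in both Nox4-/- lines, which is why it is given here. The change in log2(CPM + 1) was 0.46 in WT#1-4, 0.13 in WT#20D-17, -0.23 in #5-8 and -0.33 in #5-23. These values rest on 14 counts or fewer a library, and WT#20D-17 had 12 counts on both days. The difference between these end points was not tested by itself. The interaction over all 5 days did not call Myh11 (edgeR's quasi-likelihood test, FDR 0.791), nor did day 14 against day 0 (FDR 0.577).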

How the results depend on the processing

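Single values of the 10 genes kept direction and side of the threshold in 291 cases when a line or day was left out, with 44 weaker, 17 stronger and 10 reversed, and in 332 under other settings, with 17 weaker, 24 stronger and 4 reversed. RLE normalization, and upper quartile normalization where it was run (change over days and day 14 against day 0), moved no count of called members by over 1.5 times. For the change over days (2 called) there were 4 calls with no filter, with DESeq2 and at an FDR of 0.05, 0 with no replicate block, and 0 to 1 without a line. For day 14 against day 0 (4 called) there were 0 with no replicate block and 2 to 5 without a line. For day 3 against day 0 (0 called) there was 1 with no filter, with DESeq2 and at an FDR of 0.05. The interaction (0 called) gave 1 with DESeq2 and 0 to 1 without a line. By day (0 called), DESeq2 gave 1, 1, 1, 2 and 4 calls on days 0, 3, 5, 7 and 14. Leaving out a line left 1 library in an arm, and calls of those fits are not given. Against WT#1-4 (6 called) the quasi-likelihood test gave 2, the same test with day as a replicate block 8, and leaving out a day or line 3 to 7. Between the Nox4-/- lines (2 called) the quasi-likelihood test gave 0, day as a replicate block 4, and leaving out a day 0 to 3. With the line as the unit (0 called) DESeq2 gave 4 and leaving out a line 0 to 1. Against WT#20D-17 and between the wild type lines no setting moved the count by over 1.5 times. Signs turned for day 14 against day 0 with no replicate block (log2 fold changes of -1.62 for Cnn1, 0.17 for Myh11 and -0.78 for Des). They also turned on leaving out a line, where Cnn1 ran from -1.09 without WT#1-4 to 5.40 without WT#20D-17, which was called, Myh11 from -1.52 to 0.051 (without #5-23), Tpm2 from -0.000176 (without WT#20D-17) to 0.42 and Des from -0.16 (without #5-8) to 1.92. Acta2 on day 0 ran from -2.10 to 0.15 (without WT#1-4). Cald1 against WT#1-4 ran from -0.35 to 0.074 (without day 14). Myocd against WT#20D-17 ran from -2.01 (without #5-23) to 1.18, with -0.96 without day 14, and was at -0.19 with day as a replicate block. With the line as the unit, Des ran from -3.36 to 1.71 and Myocd from -3.28 to 0.29, both highest without WT#1-4. Where the alternative left out samples it also had fewer of them, and for other changes the cause was not tested. Differences between 2 libraries that are both at or under 3 counts, as for Cnn1 and Myh11 between the Nox4-/- lines on most days, were not detectable at this depth, and with 2 lines per genotype a genotype difference rests on the distance between clones.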
